A study of Mus musculus with 12 samples.

Results

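Transmembrane mucins of the colon surface were described as 5 genes, Muc1, Muc3, Muc4, Muc13 and Muc20, found by symbol in a table of 35241 gene symbols from mouse distal colon; all 5 were present. The choice was made by name, with no measured value in the rule. RNA was sequenced from full-thickness distal colon of 12 C57Bl/6 mice, 6 Spry2FF and 6 Spry2IEKO. Both groups carried 2 floxed alleles of Spry2, the gene for the signaling regulator Sprouty2, and Spry2IEKO mice also carried Vil1::Cre, in which the villin promoter drives Cre in the intestinal epithelium; the controls carried no Cre. Litters A and B each gave 3 mice of each genotype, 3 of the Spry2FF mice and 1 of the Spry2IEKO mice were male, and the labels give an age of 6 weeks in one protocol and 8 weeks in another. The litter letter coincided with a numeric prefix of the library names whose meaning is not stated, so litter and whatever the prefix marks cannot be told apart. Values are normalized TPM, a level relative to all transcripts of the sample that the authors scaled once more between mice, summed over the transcripts of each gene. TPM is a level per transcript length, so levels of different genes can be set side by side on this scale.

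Membrane-bound mucins are long, heavily O-glycosylated proteins that are anchored in the apical membrane and form the glycocalyx of the enterocyte brush border, beneath the gel of secreted Muc2. Most carry an extracellular SEA domain at which the chain is cleaved, and several have EGF-like domains and a short cytoplasmic tail that can be phosphorylated. In the colon MUC3-type mucins and MUC13 are known for the enterocyte surface, MUC4 for goblet cells and colonocytes, and MUC1 for a broad range of epithelia at low level.

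A pair of members made up nearly all of the signal. Muc3, a brush border mucin, had a mean of 2105 ± 686 normalized TPM over the 12 mice (SD, n = 12), and Muc13, a smaller mucin with EGF-like domains, had 1150 ± 175. By mean level they were number 29 and number 100 of 15880 genes with a mean of at least 0.5. Muc3 gave 52.4% to 73.2% of the summed level of the 5 genes and Muc13 gave 24.7% to 45.6%. Muc3 was above Muc13 in 12 of 12 mice, by 1.15-fold to 2.97-fold. Muc4, a very long mucin known as a ligand partner of ErbB2, averaged 31.4 ± 11.1, and Muc1, the founding member of the class, 25.0 ± 5.86. Muc4 and Muc1 were neighbours whose ranges overlapped, with Muc4 higher in 9 of 12 mice. This order depended on how transcripts were added up. Weighted by length and expressed per longest annotated transcript, Muc4 averaged 10.1 in Spry2FF and 13.2 in Spry2IEKO mice and Muc1 20.1 and 23.4, with Muc1 higher in 12 of 12 mice. Muc20, a small mucin described as a partner of the Met receptor, averaged 0.494 ± 0.181, just under the mean of 0.5 required for the fit across genes. Levels varied over mice by 1.90-fold for Muc13, 1.96-fold for Muc1, 2.41-fold for Muc3, 2.99-fold for Muc4 and 3.46-fold for Muc20, from the lowest to the highest mouse.

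The genes lie at 3 places in the genome (mm10, also named GRCm38). Muc1 is on chromosome 3 (89229057 to 89233381, plus strand), Muc3 on chromosome 5 (137134922 to 137149322, minus strand) and the other three on chromosome 16. Muc4 (32735886 to 32782391, plus strand) and Muc20 (32777419 to 32797435, minus strand) overlap tail to tail by 4973 bases, and Muc13 (33794037 to 33819934, plus strand) lies further along the chromosome. The labels name a stranded library kit, but whether reads were assigned by strand is not given in the sources used here, and 14.8% of the 31-base words of the longer Muc20 transcript, Muc20-202, run antisense to Muc4 transcripts. Without strand, Muc20 reads in this overlap could not be told from Muc4 reads. No 31-base word of Muc1, Muc3, Muc4 or Muc20 was shared on the same strand with another gene.

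Upstream sequence is shown for Muc1, Muc4 and Muc13, since Muc4 and Muc13 gave the largest differences between genotypes among the members and Muc1 serves as a comparison at a like level to Muc4. It comes from RefSeq (GRCm38.p6), runs 5′ to 3′ on the strand of the gene and ends at the base before the annotated start. For Muc13 that is the start of its main transcript, 122 bases upstream of the RefSeq start used. Matches to 5 motifs on either strand are in capitals. The TATA box was searched as TATAAA, the GC box as GGGCGG, the core of an ETS factor site as AGGAAG, the core of a Gata factor site as AGATAA, and the core of an HNF1 site as GTTAAT.
Muc1, chr3:89228806-89229055, plus strand: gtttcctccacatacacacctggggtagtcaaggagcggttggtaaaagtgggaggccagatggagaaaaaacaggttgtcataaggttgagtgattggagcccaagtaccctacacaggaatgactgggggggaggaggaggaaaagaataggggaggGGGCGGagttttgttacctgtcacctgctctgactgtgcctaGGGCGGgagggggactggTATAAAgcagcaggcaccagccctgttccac
Muc4, chr16:32735636-32735885, plus strand: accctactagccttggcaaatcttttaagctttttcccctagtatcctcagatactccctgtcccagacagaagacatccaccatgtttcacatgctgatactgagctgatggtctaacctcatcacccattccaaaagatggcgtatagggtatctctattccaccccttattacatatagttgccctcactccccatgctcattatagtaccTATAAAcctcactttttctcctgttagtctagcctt
Muc13, chr16:33794239-33794366, plus strand: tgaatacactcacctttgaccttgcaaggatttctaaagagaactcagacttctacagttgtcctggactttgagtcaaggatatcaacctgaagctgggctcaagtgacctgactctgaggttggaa
The Muc1 stretch held 2 GC boxes and a TATA box that begins 31 bases before the start, and the Muc4 stretch held a TATA box that begins 36 bases before it. TATAAA occurred in 12.4% and GGGCGG in 32.7% of the 250-base stretches before 32851 annotated starts. The Muc13 stretch is the 128 bases before the transcript that gave nearly all of its signal, within the first intron of a second Muc13 transcript. None of the 5 motifs was found in it, as in 49.1% of stretches of that length directly before RefSeq starts. A match describes letters only.

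Spry2 itself checked the labels. It stood at 22.8 to 32.3 normalized TPM in Spry2FF and 18.5 to 22.5 in Spry2IEKO mice, and the groups did not overlap, although the tissue held muscle and stroma in which the villin promoter is not active. Its log2 difference of -0.45 had an adjusted p of 0.160 by limma, so Spry2 itself did not pass the threshold of 0.05. In the comparison of Spry2IEKO with Spry2FF mice over all genes, 5 of 15880 genes passed an adjusted p of 0.05 by limma (0.0315%), and 981 had an unadjusted p under 0.05 (6.18%). None of the 4 members that could be tested was among those 5, and Muc13 and Muc4 had an unadjusted p under 0.05. The question of this comparison was how loss of epithelial Sprouty2 bears on the cell-surface mucins of the colon.

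Muc13 was lower in Spry2IEKO mice. In litter A it stood at 1307, 1249 and 1136 normalized TPM in the Spry2FF mice and at 803, 1065 and 1066 in the Spry2IEKO mice. In litter B it stood at 1525, 1179 and 1237 in Spry2FF and at 1100, 1086 and 1043 in Spry2IEKO mice. The highest Spry2IEKO mouse lay under the lowest Spry2FF mouse, a separation in this direction seen in 34 of the 15880 genes (0.214%). The means were 1272 ± 137 and 1027 ± 112 (SD, n = 6 each), a ratio of 0.807. On the log2(value + 0.5) scale the difference was -0.31 with a standard error of 0.092 and a 95% interval from -0.51 to -0.11. It did not pass the correction over 15880 genes (adjusted p = 0.628 by limma), and 122 genes had an unadjusted p as small as its 0.00486. An exact two-sided permutation test of the mean alone, uncorrected, gave p = 0.00216, the smallest that the 924 splits of 6 against 6 allow. Taken by litter, the differences were -0.34 (A) and -0.28 (B). Sex was uneven over genotypes, with 3 males among 6 Spry2FF and 1 among 6 Spry2IEKO mice. In Spry2FF mice Muc13 was 1249 to 1525 in males and 1136 to 1237 in females, with no overlap. With sex in the fit the genotype difference was -0.25 (unadjusted p = 0.0154, adjusted p = 0.999 by limma), and among females alone it was -0.23 (unadjusted p = 0.0623 by limma).

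General epithelial markers were also lower in mean. The summed level of 7 genes found in all epithelial cells (Epcam, Cdh1, Krt8, Krt18, Krt19, Cldn7 and Vil1) ranged from 6479 to 7939 in Spry2FF and from 5381 to 6779 in Spry2IEKO mice. Of the 7, 6 had a lower mean in Spry2IEKO mice, 4 of them at an unadjusted p under 0.05 (all genes, 6.18%). None passed the adjusted threshold (lowest adjusted p = 0.611 by limma). Expressed per 1000 units of these markers, Muc13 was 181 ± 11.6 in Spry2FF and 166 ± 11.6 in Spry2IEKO mice, a ratio of 0.915, and the groups overlapped. With all genes divided by these markers the median of all genes moved to +0.18 on the log2 scale. The Muc13 difference was then -0.13 (unadjusted p = 0.0998 by limma). Relative to that median it was -0.30, against -0.32 before the division. Dividing all genes by 1 factor per mouse leaves that last value nearly fixed, so it does not test epithelial content. Markers of surface colonocytes, the absorptive cells at the crypt mouth (Krt20, Car4, Car1, Slc26a3, Aqp8, Guca2a and Ceacam20), summed to 6184 ± 925 in Spry2FF and 4980 ± 1636 in Spry2IEKO mice. All 7 had a lower mean in Spry2IEKO mice, 3 at an unadjusted p under 0.05 (all genes, 6.18%). None of these 7 passed (lowest adjusted p = 0.632 by limma). Their median log2 difference was -0.28, against 0.01 over all genes. The part of these markers in the Muc13 difference was not tested. In whole tissue, fewer cells of a type and less RNA per cell cannot be told apart.

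**Figure D1:**
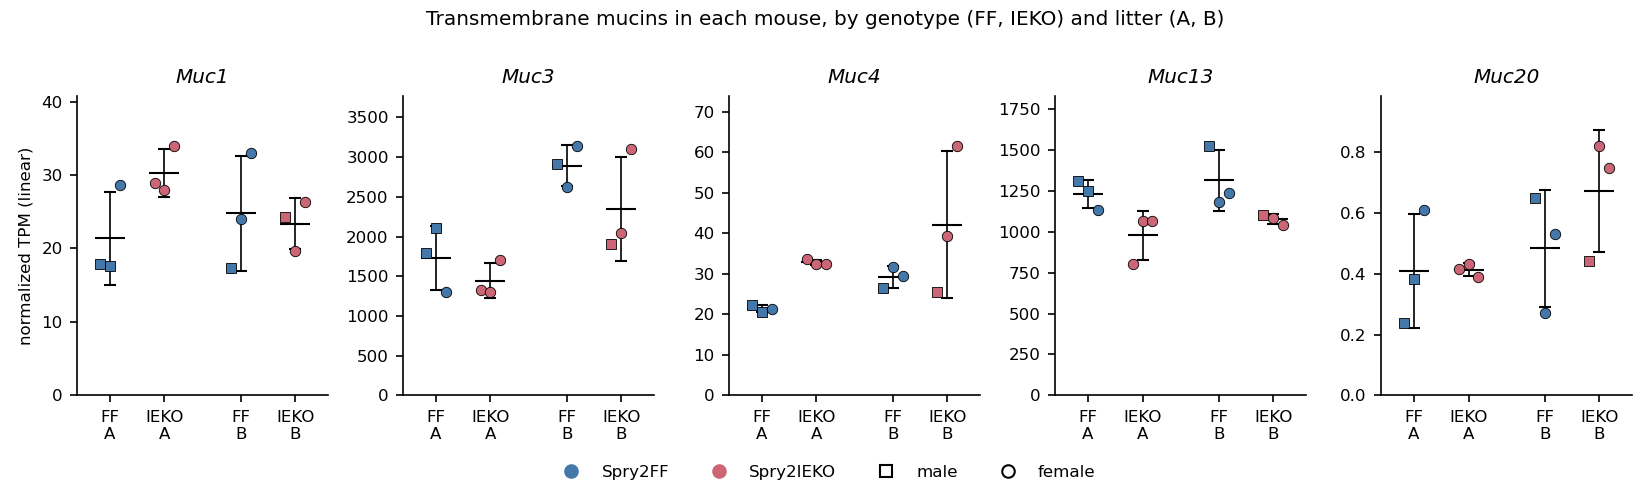
Normalized TPM of each transmembrane mucin in each mouse (linear axes from 0), by genotype (blue, Spry2FF; red, Spry2IEKO) and litter (A, B); squares are males and circles females, and bars give the mean and SD of 3 mice. Muc13 sits at 803 to 1100 in the 6 Spry2IEKO mice and at 1136 to 1525 in the 6 Spry2FF mice, and Muc3 is higher in litter B, with 1906 to 3143 against 1303 to 2107 in litter A.

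Muc4 was higher in Spry2IEKO mice, with less even values. In litter A the Spry2FF mice had 22.2, 20.6 and 21.3 normalized TPM and the Spry2IEKO mice 33.6, 32.5 and 32.3, with no overlap. In litter B the Spry2FF mice had 26.5, 31.8 and 29.5 and the Spry2IEKO mice 25.6, 39.2 and 61.6. Here the lowest Spry2IEKO mouse, the male, was below all 3 controls. Over both litters 5 of 6 Spry2IEKO mice were above every Spry2FF mouse, and the means were 25.3 ± 4.65 and 37.5 ± 12.6, a 1.48-fold ratio. The log2 difference was 0.52 with a standard error of 0.18 and a 95% interval from 0.13 to 0.91 (adjusted p = 0.693 by limma). The exact two-sided permutation test of the mean, uncorrected, gave p = 0.0195. Taken by litter, they were 0.61 (A) and 0.43 (B). Without Spry2IEKO mouse 12, the highest, the difference was 0.37.

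The Muc4 sum was built mainly from 3 of its 8 annotated transcripts. Muc4-205, a coding transcript of 4575 bases that starts inside the gene, gave a mean share of 42.3% in Spry2FF and 40.1% in Spry2IEKO mice. Muc4-202, a non-coding annotated fragment of 1348 bases at the 3′ end, gave 33.7% and 37.8%, and Muc4-206, a non-coding annotated transcript of 10805 bases, 20.3% and 16.4%. Muc4-201, the full-length coding transcript of 11277 bases, was listed at 0 or close to it in all mice. Of the 31-base words of Muc4-205, 100% also occur in other Muc4 transcripts, so the split among transcripts is an estimate. Muc4-205 alone was 10.5 ± 1.33 in Spry2FF and 14.3 ± 2.12 in Spry2IEKO mice, a log2 difference of 0.42. With transcripts weighted by length, which follows reads more closely than molecules, Muc4 differed by 0.37 (adjusted p = 0.693 by limma). The share of the leading transcript passed the exact two-sided permutation test between genotypes for none of the 5 members.

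Muc3 and Muc1 had genotype differences within their spread. Muc3 was 2314 ± 704 in Spry2FF and 1896 ± 660 in Spry2IEKO mice, with a log2 difference of -0.29 (95% interval -0.81 to 0.23, adjusted p = 0.889 by limma). By litter it was -0.25 (A) and -0.33 (B), with overlap in both. Muc1 was 23.1 ± 6.63 and 26.8 ± 4.81, with a log2 difference of 0.24 (95% interval -0.14 to 0.62, adjusted p = 0.867 by limma). By litter it was 0.52 (A) and -0.04 (B), and the test of that difference between litters gave -0.57 (adjusted p = 0.998 by limma). Muc1 values of the Spry2FF mice followed sex: the 3 males had 17.9, 17.6 and 17.3 and the 3 females 28.7, 24.0 and 33.0 normalized TPM, with no overlap. The Spry2IEKO male had 24.3 and the 5 Spry2IEKO females 19.6 to 34.0. Among females alone the Muc1 genotype difference was -0.07, and with sex in the fit it was 0.08. Divided by the pan-epithelial markers, Muc3 differed by -0.11 (adjusted p = 0.788 by limma). Muc1 then differed by 0.42 (unadjusted p = 0.0438, adjusted p = 0.325 by limma), with the median of all genes at 0.18.

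Muc20 was close to the limit of measurement. It stood at 0.237 to 0.649 normalized TPM in Spry2FF and at 0.390 to 0.821 in Spry2IEKO mice. The means were 0.447 ± 0.175 and 0.542 ± 0.190, and an exact two-sided permutation test of the log2 values gave p = 0.366. A level this low beside an overlapping Muc4 gene of a mean of 31.4 cannot be read as Muc20 alone where strand was not used.

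**Figure D2:**
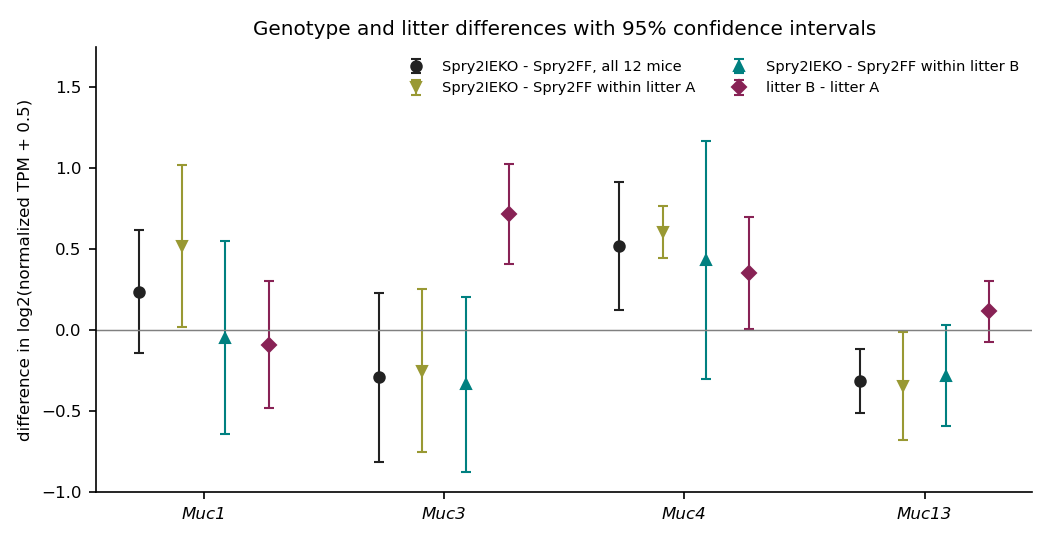
Differences in log2(normalized TPM + 0.5) for the 4 members in the fit, with 95% confidence intervals: Spry2IEKO minus Spry2FF over 12 mice (black), within litter A (olive) and within litter B (teal), and litter B minus litter A (purple). The Muc13 genotype difference is -0.31 over all mice and -0.34 and -0.28 within the litters, and the Muc3 litter difference is 0.72.

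Between litters, Muc3 was the member that passed the test. In litter B it stood at 2914, 2623 and 3143 normalized TPM in Spry2FF mice and at 1906, 2039 and 3099 in Spry2IEKO mice, against 1787, 2107 and 1307 and 1328, 1303 and 1700 in litter A. The mean was 2621 ± 536 in litter B and 1589 ± 332 in litter A (SD, n = 6 each), a 1.65-fold ratio. In 4 of 6 litter B mice Muc3 was above every litter A mouse. With genotype in the fit the log2 difference was 0.72 with a standard error of 0.14 and a 95% interval from 0.41 to 1.03 (adjusted p = 0.0212 by limma). In the same comparison 696 of 15880 genes passed (4.38%), 171 of them higher in litter B (1.08%); with 1 mouse left out the count was 180 to 957. An unadjusted p under 0.05 was found for 3475 genes (21.9%). The Muc3 call rested on a narrow margin. Its adjusted p was 0.0561 without Spry2IEKO mouse 5, 0.0536 without Spry2FF mouse 9 and 0.0540 without Spry2FF mouse 13, by limma, with log2 differences of 0.69, 0.71 and 0.69.

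The other members did not pass between litters. The log2 difference, litter B minus litter A, was 0.35 for Muc4 (adjusted p = 0.221 by limma), 0.12 for Muc13 (adjusted p = 0.453 by limma) and -0.09 for Muc1 (adjusted p = 0.815 by limma). Muc4 passed only without Spry2IEKO mouse 8 (0.50, adjusted p = 0.0255 by limma). With its transcripts weighted by length the Muc4 litter difference was -0.07. Muc20 averaged 0.411 ± 0.119 (litter A) and 0.577 ± 0.204 (litter B; exact two-sided permutation test of log2 values, p = 0.136). In the test of whether the genotype difference depended on litter, 2 of 15880 genes passed (0.0126%) and no member did.

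The summed epithelial markers were 6342 ± 581 for litter A and 6879 ± 678 for litter B. Of these 7 markers, 5 were higher in litter B, and Cdh1 passed in the other direction (log2 -0.22, adjusted p = 0.0282 by limma). Per 1000 units of these markers Muc3 averaged 250 ± 43.3 (A) and 382 ± 75.9 (B), a 1.53-fold ratio. The 7 surface colonocyte markers summed to 3326 to 6912 in litter A and 4599 to 7756 in litter B. Of these 7 genes, 6 had a higher mean in litter B, 4 of them at an unadjusted p under 0.05, against 21.9% of all genes in either direction. Guca2a, which encodes guanylin, passed in the other direction (log2 -0.57, adjusted p = 0.0264 by limma). The part of the surface colonocyte signal in the Muc3 difference was not tested.

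**Figure D3:**
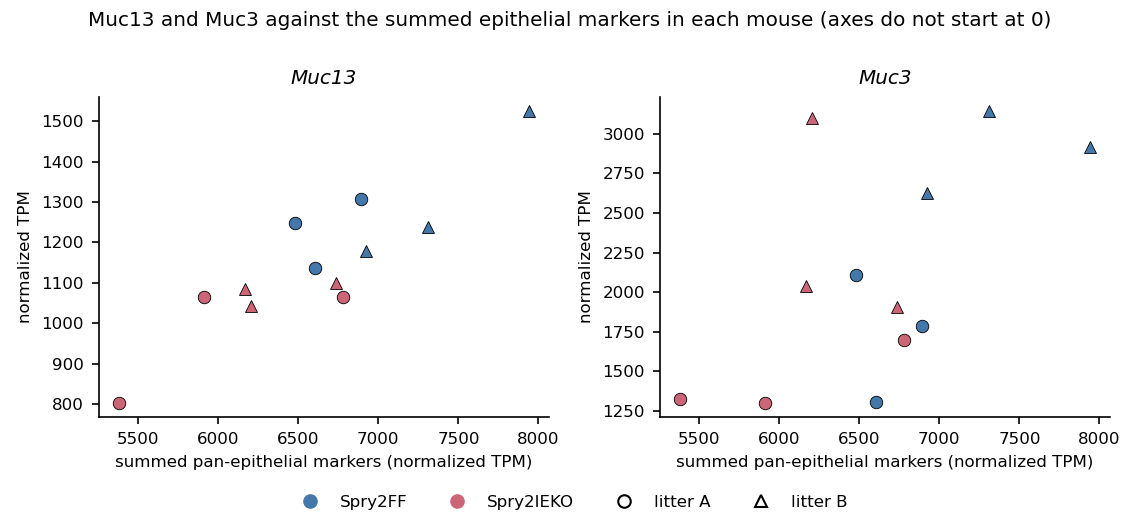
Muc13 (left) and Muc3 (right) in normalized TPM against the summed level of 7 pan-epithelial markers in each mouse; circles are litter A, triangles litter B, blue is Spry2FF and red Spry2IEKO, and the axes do not start at 0. The Spry2IEKO mice lie at 5381 to 6779 units of epithelial markers and the Spry2FF mice at 6479 to 7939, while Muc3 of 1906 to 3143 in litter B spans both.

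The share of the short 3′ transcript Muc4-202 separated the litters, and that of Muc3-202 did not. Muc4-202 gave 20.1% to 31.7% of the Muc4 sum in litter A and 32.7% to 61.1% in litter B, with no overlap. Muc3-202, a non-coding annotated fragment of 955 bases, gave 1.59% to 2.93% of the Muc3 sum in litter A and 1.91% to 18.4% in litter B, with overlap. Both were highest in Spry2IEKO mouse 12, at 37.7 normalized TPM for Muc4-202 and 572 for Muc3-202. Muc3-201, the coding transcript of 1853 bases, stood at 2527 in that mouse. In Muc1 the main coding transcript Muc1-201 had its lowest shares in 2 litter B mice, Spry2FF mouse 13 (50.6%) and Spry2IEKO mouse 12 (57.7%). Muc13-201 gave 97.5% to 99.7% of the Muc13 sum in all mice. Over all genes, transcripts annotated as retained introns took 4.53% to 5.08% of the signal in litter A and 4.72% to 5.99% in litter B, with the highest value in Spry2IEKO mouse 12, which also had the fewest genes above 0 (18655, against 19062 to 19753 in the others). The part in the transcript shares of RNA quality, or of whatever the prefix of the library names marks, was not tested.

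**Figure D4:**
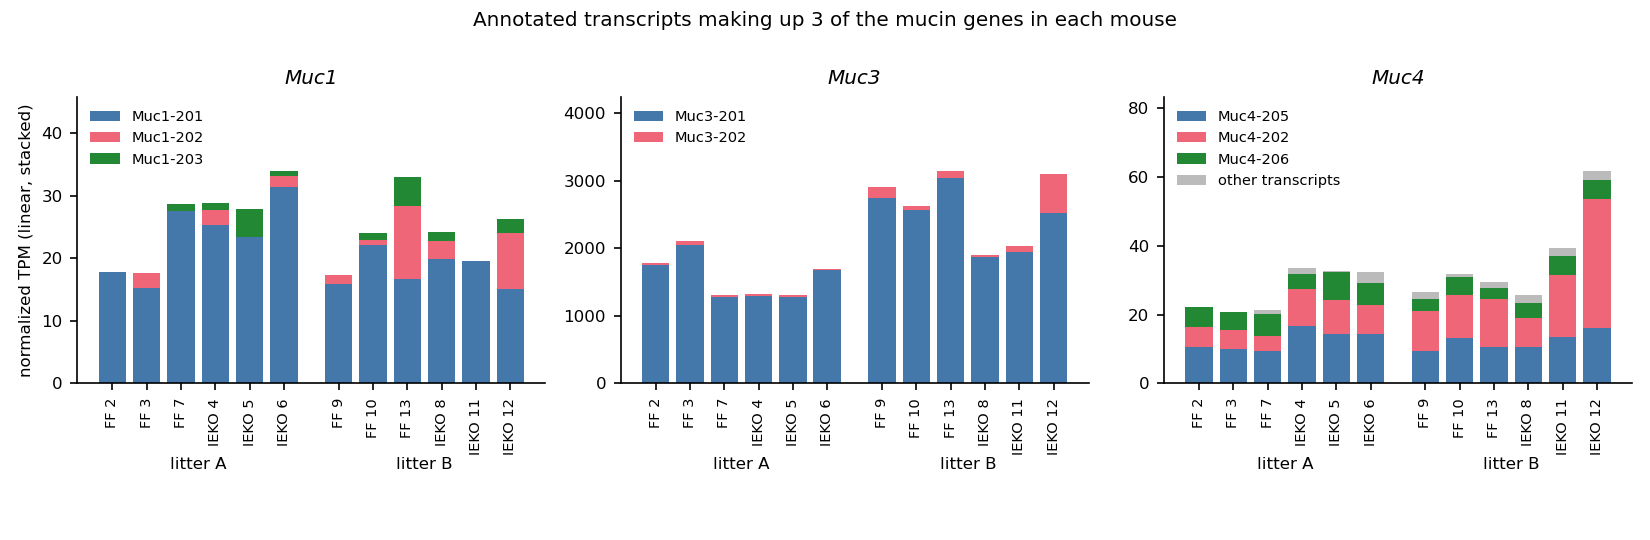
Normalized TPM of the annotated transcripts of Muc1, Muc3 and Muc4 in each mouse, stacked (linear axes from 0), with litter A at the left and litter B at the right of each panel; labels give genotype and mouse number. The 3′ fragments Muc4-202 and Muc3-202 reach 37.7 and 572 in IEKO mouse 12.

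The annotated Muc3 transcripts are short for a mucin. Muc3-201 holds 1134 coding bases, and its start lies 16724 bases downstream of the start that RefSeq gives for Muc3, so the level describes the 3′ part of the gene. Muc3a, a related gene 59490 bases away that shares no 31-base word with Muc3, stood at 25.1 to 61.9 normalized TPM. It was also highest in Spry2IEKO mouse 12 and passed neither comparison. The 8 nearest protein-coding neighbours of the members that are not members themselves (Mtx1, Trim46, Trim56, Muc3a, Tnk2, Heg1, Itgb5 and Smbd1) had genotype log2 differences between -0.16 and 0.29, and none passed in either comparison, with 2 at an unadjusted p under 0.05 in each (all genes, 6.18% between genotypes and 21.9% between litters). Heg1 and Itgb5, on the sides of Muc13, gave -0.04 and -0.05.

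Over the 12 mice no pair of members passed the correction for 10 pairs. Muc4 and Muc13 had Spearman rho = -0.755 (permutation p = 0.00636, adjusted 0.0636) and Pearson r = -0.45 (permutation p = 0.139, adjusted 0.348). By litter r was -0.77 (A) and -0.60 (B), and without the 2 mice farthest from the Muc4 median it was -0.47. Muc1 and Muc13 had r = -0.57 (permutation p = 0.0471, adjusted 0.348) and rho = -0.615 (permutation p = 0.0371, adjusted 0.186), with -0.66 (A) and -0.41 (B) by litter and -0.33 without the 2 farthest mice. Muc3 and Muc13, the abundant pair, had r = 0.52 (permutation p = 0.0764, adjusted 0.348) and rho = 0.399 (permutation p = 0.200, adjusted 0.509).

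Among 15880 genes, those with the pattern over the 12 mice most like that of Muc13 were Cgn (r = 0.94), which encodes the tight junction protein cingulin, Mink1 (0.91) and Snx11 (0.91). For Muc3 they included Tmem253 (0.96) and Pank4 (0.94). For Muc4 they were Itgb3bp (0.97), Fam221a (0.96) and Rab9 (0.94), and for Muc1 Slc17a4 (0.91), Npdc1 (0.90) and Hgfac (0.86). For Muc20 they were Sft2d1 (0.92), Gm826 (0.88) and Vmn1r-ps128 (0.88). These r values are the highest of many and describe these 12 mice, whose differences in genotype and litter also enter them.

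Other mucins framed the members. Muc2, the gel-forming mucin of goblet cells, stood at 864 ± 108 in Spry2FF and 1246 ± 162 in Spry2IEKO mice without overlap, a log2 difference of 0.53 (adjusted p = 0.160 by limma). Over the 7 goblet cell markers (Muc2, Tff3, Fcgbp, Clca1, Zg16, Agr2 and Spink4) all 7 had a higher mean in Spry2IEKO mice. Of these, 6 had an unadjusted p under 0.05 (all genes, 6.18%), and none passed. The gastric and airway mucins Muc5ac, Muc5b and Muc6 had group means of at most 0.0649. Of the other membrane-bound mucins, Muc16 averaged 0.284 in Spry2FF and 0.203 in Spry2IEKO mice and Muc15 0.00754 and 0.0232. The symbols Muc12, Muc17, Muc21 and that of the secreted Muc19 were not found among the gene symbols. Among 4 mucin-like surface proteins none passed between genotypes, and 0 had an unadjusted p under 0.05 (all genes, 6.18%). Podxl and Emcn, which mark blood vessel walls, were lower in litter B (log2 -1.21, adjusted p = 0.0101, and -1.04, adjusted p = 0.0251, by limma), as was Parm1 (-0.21, adjusted p = 0.0429 by limma). Cd164 was 187 ± 15.7 in Spry2FF and 208 ± 30.0 in Spry2IEKO mice.

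Partners of the membrane mucins at the apical surface did not pass between genotypes. Among 6 tested ERM proteins and PDZ scaffolds, which tie apical membrane proteins to actin, none passed and 2 had an unadjusted p under 0.05 (all genes, 6.18%). Ezr, the ezrin of the brush border, was 337 ± 40.4 in Spry2FF and 287 ± 28.7 in Spry2IEKO mice (adjusted p = 0.753 by limma), and Slc9a3r1, its PDZ scaffold NHERF1, 160 ± 22.9 and 132 ± 19.4 (adjusted p = 0.753 by limma). Slc9a3r2 was lower in litter B (log2 -0.78, adjusted p = 0.00650 by limma). Among 8 surface lectins and glycoproteins, 7 had a lower mean in Spry2IEKO mice, 3 at an unadjusted p under 0.05 (all genes, 6.18%), and none passed. The median log2 difference of these 8 was -0.18, against 0.01 over all genes. Cdhr5, a mucin-like protocadherin that links microvilli, was 465 ± 29.6 in Spry2FF and 369 ± 28.2 in Spry2IEKO mice without overlap (log2 -0.34, adjusted p = 0.160 by limma), and its partner Cdhr2 189 ± 21.1 and 143 ± 22.3 (adjusted p = 0.561 by limma). The abundant galectins Lgals4 and Lgals3 differed by -0.10 and -0.12.

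Among 8 receptors and signaling partners, which include Erbb2, Met, Src and Ctnnb1, none passed between genotypes and 2 had an unadjusted p under 0.05 (all genes, 6.18%). Egfr and Met were lower in litter B (log2 -0.52, adjusted p = 0.0112, and -0.44, adjusted p = 0.0155, by limma). Jup, which encodes plakoglobin, and Src had genotype differences of -0.29 and -0.26, and Ctnnb1, the beta-catenin that can bind the tail of MUC1, -0.04. Of 7 proteases known to cleave surface or mucus proteins none passed in either comparison; 0 had an unadjusted p under 0.05 between genotypes and 5 between litters, where 21.9% of all genes had one. The meprins Mep1a and Mep1b were the most abundant by mean, with genotype differences of -0.24 and -0.09, and Adam17, a known sheddase of membrane mucins, gave 0.10.

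Of 22 tested enzymes of mucin-type O-glycosylation, 1 passed between genotypes. B4galnt2, which adds a terminal beta-GalNAc to glycans of colon mucins, was 78.7 ± 17.1 in Spry2FF and 32.3 ± 2.05 in Spry2IEKO mice (log2 -1.25, adjusted p = 0.00229 by limma). Gcnt3, B3gnt3, B3gnt7 and Galnt7 were lower in litter B, by -0.49, -0.18, -0.29 and -0.30. Galnt6 and Galnt12, which start O-glycan chains, differed between genotypes by -0.26 and 0.27, and the sialyltransferases St6galnac6 and St3gal4, abundant here, by -0.07 and 0.01. Of 16 transcription factors none passed between genotypes and 5 had an unadjusted p under 0.05 (all genes, 6.18%). Ehf, an epithelial ETS factor, was lower in litter B (log2 -0.25, adjusted p = 0.0336 by limma). Atoh1, the factor of the secretory lineage, and Elf3, another epithelial ETS factor, gave genotype differences of 0.39 and -0.22, and Klf4 gave -0.20.

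**Figure D5:**
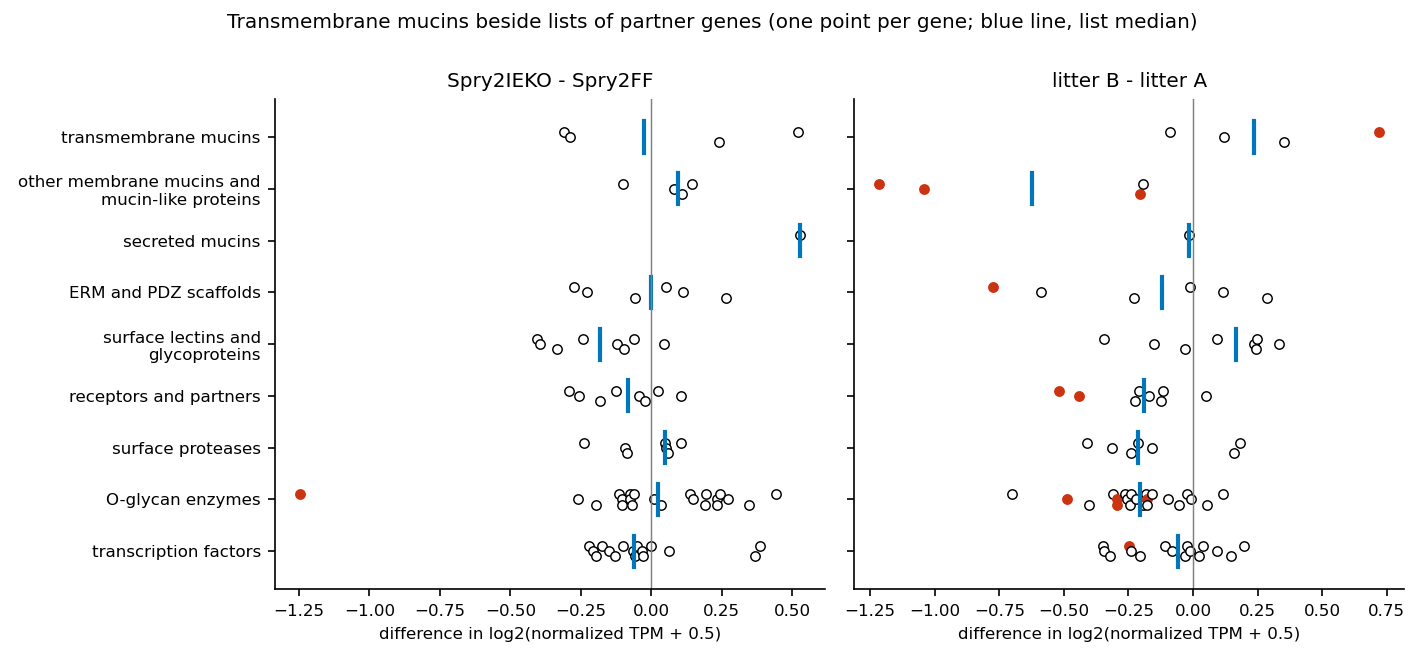
Differences in log2(normalized TPM + 0.5), Spry2IEKO minus Spry2FF (left) and litter B minus litter A (right), for the 4 tested transmembrane mucins and 8 lists of partner genes; each point is a gene, filled red where the adjusted p was under 0.05, and the blue line is the median of the list. Muc3 (0.72) is the filled point of the top row between litters, and B4galnt2 (-1.25) is the filled point between genotypes.

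Markers of other cell types described the tissue. Smooth muscle markers summed to 3226 to 7887 normalized TPM over all mice, and 0 of 6 had an unadjusted p under 0.05 in either comparison. Tuft cell markers summed to 9.4 to 28.0 in Spry2FF and 17.2 to 44.0 in Spry2IEKO mice. Between genotypes none of 5 tested genes passed and 2 had an unadjusted p under 0.05 (all genes, 6.18%). Adipocyte markers reached 366 and 761 in Spry2IEKO mice 4 and 5 and were at most 72.9 in the other mice, and B cell markers reached 311 in Spry2IEKO mouse 4. Mouse 4 also had the lowest Muc13, at 803; without it the Muc13 difference was -0.24. The 9 markers of stratified squamous epithelium summed to 5.8 to 11.5 in Spry2FF and 5.6 to 11.8 in Spry2IEKO mice. Krt10, Krt14 and Sprr1a gave most of this. Krt10 averaged 5.76 and 5.89, Krt14 2.44 and 1.23 (log2 -0.76, adjusted p = 0.656 by limma) and Sprr1a 1.27 and 1.82, in Spry2FF and Spry2IEKO mice. The defining genes Krt5 and Trp63 averaged at most 0.106 per group, and Krt6a was listed at 0 in all mice. The 5 mesothelial markers summed to at most 9.2. The part of these cell types in the mucin values was not tested.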

How the data were processed

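Distal colon RNA was sequenced in 12 mice. In the authors' work kallisto assigned the reads to mouse transcripts and gave a TPM for each. The deposited signal is TPM scaled once more between mice, with column totals from 918816 to 1069158. Read depth per mouse is unknown from these values, so no counting interval is given and the spread between mice sets the precision. The labels name CASAVA, kallisto, sleuth and build mm10; read layout and age differ between the labels and the study's methods, the labels name a stranded kit, and the strand setting used in counting is not given in the sources used here. Columns of the authors' own test (p-values, q-values and model terms) were not used.

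Of 113974 rows, 781 repeats were dropped. Transcripts were summed to 35241 symbols, and 15880 with a mean of at least 0.5 were fitted on log2(value + 0.5) with limma 3.58.1 (moderated, trend, Benjamini-Hochberg). A fold change on this scale understates that of low genes. Muc20, under the minimum, was tested by exact permutation. Litter fits held genotype as a covariate. The fit was checked on simulated data. Transcripts were annotated from GENCODE M21, and upstream sequence came from RefSeq. Alternatives covered pseudocount, filter, scaling, sex, litter, transcript choice and leaving out each mouse; weighting by length, and the counts with litter in the fit or females alone, were chosen after seeing the data.

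The members and lists were chosen with earlier results of these data known. Named genes are the members, all genes of both other mucin lists, and of each further list those past adjusted p 0.05, with, of the rest, the 2 of smallest genotype p and the 2 of highest mean; the 3 most correlated genes per member; and nearest neighbours. A few members of marker lists were named beside these. Mouse numbers are those of the sample titles. A gene that the rule for named genes selects is not reported here.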

Additional observations from a re-analysis of the deposited data

Results flagged for a closer look

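Within groups of 6 mice, a single mouse stood far from the other 5 in 6 of 34 gene or transcript groups examined, where chance flags about 1 in 20. The groups are not independent, since a gene and its transcripts share signal, so the count cannot be set against that rate as a test. Muc13 was lowest in Spry2IEKO mouse 4, at 803 normalized TPM against 1043 to 1100 in the other Spry2IEKO mice, and its main transcript Muc13-201 was at 783 in that mouse against 1038 to 1089. The same mouse had the lowest summed epithelial markers (5381) and the highest summed B cell markers (311). Of the other values, 3 came from Spry2IEKO mouse 12. Muc3a was at 61.9 there against 25.2 to 33.4, the 3′ fragment Muc3-202 at 572 against 24.9 to 95.7 and the 3′ fragment Muc4-202 at 37.7 against 8.38 to 17.8. Muc4-205 was highest in Spry2FF mouse 10, at 13.05 against 9.42 to 10.6 in the other Spry2FF mice.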

How the results depend on the processing

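Of 121 values of the members under another setting, leaving aside single mice left out, 114 kept their direction and their side of the threshold. Only the Muc3 litter value had passed in the main fit, so for the others the side could change only by passing. A kept direction still allowed a change in size. The Muc13 genotype difference went from -0.31 to -0.13 per epithelial marker signal, and that of Muc1 from 0.24 to 0.08 with sex in the fit. The genotype difference turned for Muc1 among females (-0.072). The Muc4 litter difference turned with transcripts weighted by length (-0.074). The genotype by litter term turned for Muc3 under quantile normalization (0.022) and, with sex in the fit, for Muc4 (0.077) and Muc13 (-0.061). The exact permutation test of the mean, not corrected for the number of genes, passed for Muc4 (log2 ratio of means 0.57) and Muc13 (-0.31). The Muc3 litter difference stayed between 0.60 and 0.72 with an adjusted p of at most 0.0297 under these settings by limma.

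Leaving out 1 mouse at a time gave genotype differences of 0.17 to 0.35 for Muc1, -0.44 to -0.19 for Muc3, 0.37 to 0.62 for Muc4, -0.34 to -0.24 for Muc13 and 0.07 to 0.20 for Muc20. Litter differences were -0.22 to -0.0032 for Muc1, 0.63 to 0.78 for Muc3, 0.22 to 0.50 for Muc4, 0.06 to 0.16 for Muc13 and 0.17 to 0.32 for Muc20. The Muc20 litter difference passed the exact permutation test in 1 of these, without Spry2FF mouse 10 (0.32, exact permutation p = 0.0281). The genotype by litter terms were -0.80 to -0.34, -0.30 to 0.11, -0.49 to 0.14 and -0.074 to 0.17 for Muc1, Muc3, Muc4 and Muc13.

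The count of genes past the threshold between genotypes was 3 with a minimum mean of 0.1, 1 with sex in the fit, 2 under quantile normalization, 2 among females alone and 1 to 11 with a mouse left out, over 1.5 times from 5 whichever mouse it was. Between litters it was 180 to 957 with a mouse left out, within 1.5 times of 696 only without Spry2IEKO mouse 8 or Spry2FF mouse 10. Of the genes called between litters, 171 were higher and 525 lower in litter B, against 105 and 1351 with equal totals, 209 and 268 under quantile normalization and 63 and 1232 per epithelial marker signal; the median of all genes then moved to -0.12 with equal totals and -0.16 per epithelial marker signal, from -0.05. The causes were not tested. Mice could not be paired by number, since the numbers of the genotypes do not coincide, but each litter held 3 mice of each genotype. With litter as a block in the genotype fit the standard error was 0.14 against 0.24 for Muc3 (-0.29, unadjusted p = 0.0649, adjusted p = 0.631 by limma), and Muc4 (unadjusted p = 0.00674, adjusted p = 0.433 by limma) and Muc13 (unadjusted p = 0.00382, adjusted p = 0.399 by limma) did not pass either. The count was then 6.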
